A study of Mus musculus with 6 samples.

Results

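Kidneys collected in the light phase of the day were compared with kidneys collected in the dark phase. The 6 libraries of the series were all used: ZT0, ZT4 and ZT8 form the light phase and ZT12, ZT16 and ZT20 the dark phase, 3 libraries on each side. Each library was placed by its labelled zeitgeber time (ZT), the hours since lights on. Both groups are whole renal tissue of male BALB/c mice, an inbred albino strain, at 8 weeks of age, and the labels give no genetic change or drug treatment in either group. Each time is represented by 1 library of total RNA, and the labels do not say how many animals it holds or how many hours of light the animals received. ZT0 is the time of lights on, and by convention ZT12 is the time of lights off, so the first library of each phase was taken at a boundary. Time points therefore serve as the replicates of a phase, and every standard deviation (SD) and standard error (SE) below holds the change of a gene within a phase together with the differences between animals.

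Mice are nocturnal and take most of their food and water in the dark phase. Renal blood flow, filtration and the excretion of water and salts follow the day, and kidney cells carry a molecular clock in which BMAL1 and CLOCK activate the Period, Cryptochrome and REV-ERB genes that feed back on them. A contrast of light with dark asks which genes differ between rest and activity as blocks. It is blind by construction to a gene with equal means in both phases, however much the gene varies within them.

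Levels are the deposited FPKM, a unit that divides fragments by transcript length and library size, added over all transcripts of a gene symbol. It keeps no read counts, which leaves sequencing depth unknown and allows no interval for counting error. Libraries summed to 534448 to 577493 FPKM, of which transcripts of the mitochondrial genome took 22.2% to 28.6%. The kidney markers Umod and Slc34a1 were at 719 to 1082 FPKM and 937 to 1023 FPKM over the libraries. Differences are dark minus light, in mean log2(FPKM + 1), given with their SE, and fold changes on this scale understate those of low genes. Libraries of the same phase lay 0.344 to 0.409 apart (root mean square log2 difference over the genes tested) and libraries of different phases 0.309 to 0.423. The closest pair of all was ZT8 with ZT12, at 0.309, which belong to different phases.

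Among 12709 genes that averaged 1 FPKM or more over the 6 libraries, 1 gene rose in the dark phase at an adjusted p under 0.05 (limma with Benjamini-Hochberg adjustment), which is 0.00787% of the genes tested. None fell at that threshold (0%), in limma without trend either. At an unadjusted limma p under 0.05, 906 genes were higher in the dark phase (7.13%) and 703 were lower (5.53%), with a median absolute difference of 0.33 among these 1609 genes. All 3 dark libraries lay above all 3 light ones for 1364 genes (10.7%) and below them for 1031 genes (8.11%), and such genes are called separated here. These 6 percentages are the background against which counts of members are read below, and an exact two-sided permutation test of 3 against 3 cannot give a p below 0.10 for a single gene. The median difference over all genes was 0.019. Of 77 genes with an absolute difference of at least 1, 45 were higher and 32 lower in the dark phase, and 22 of them were separated.

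**Figure D1:**
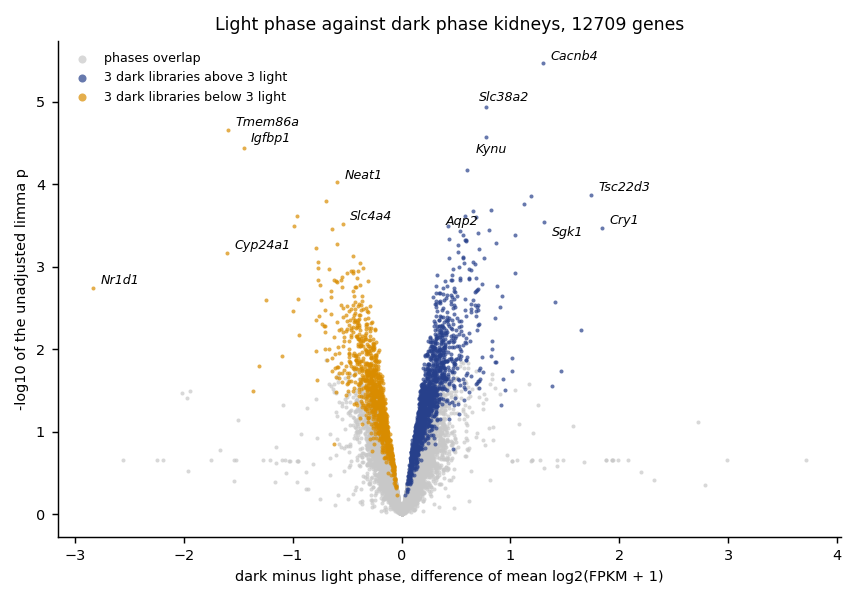
Each point is 1 of the 12709 genes tested, placed by the difference of mean log2(FPKM + 1) between dark and light phase (x axis) and the unadjusted limma p on a negative log10 scale (y axis). Blue and orange points are the 1364 and 1031 genes whose phases do not overlap, and Cacnb4 stands at the top.

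The counts depended on single libraries. Leaving out ZT12 raised the adjusted calls to 31 genes higher and 17 lower in the dark phase, and the unadjusted ones to 1354 and 1066. In that fit 12701 genes were tested, and counts of members without ZT12 below are read beside these. Leaving out ZT16 lowered the unadjusted counts to 514 and 339, and leaving out ZT20 lowered them to 546 and 446. Without ZT4, Cacnb4 was called higher and Gm25776, an unnamed gene model, lower (limma adjusted p = 0.0313 and 0.0168), and without ZT0, ZT8, ZT16 or ZT20 no gene passed. Among genes whose dark libraries were all above the light ones, ZT12 was the lowest dark library in 772 of 1364 (56.6%). Among genes whose dark libraries were all below, ZT12 was the highest dark library in 618 of 1031 (59.9%).

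Cacnb4, which encodes the beta 4 auxiliary subunit of voltage-gated calcium channels, was the gene called. The gene spans chr2:52428320-52676831 on the reverse strand (GRCm38, GENCODE M21). Its level was 9.73, 7.61 and 9.53 FPKM at ZT0, ZT4 and ZT8 and 22.2, 23.4 and 24.7 FPKM at ZT12, ZT16 and ZT20. The 3 dark values differed little from each other and the lowest of them was above the highest light value by 1.11 on the log2 scale, the widest such gap among the genes tested. The difference was 1.30 ± 0.10 (limma, Benjamini-Hochberg adjusted p = 0.0431), the phase means being 8.96 ± 1.17 FPKM in the light and 23.4 ± 1.26 FPKM in the dark phase (SD, n = 3 each). The call was lost with the most abundant transcript alone (limma adjusted p = 0.125), which held 80.6% of the FPKM, with no filter on low values (0.193), without trend (0.075) and without ZT0 (0.188), ZT8 (0.181), ZT16 (0.224) or ZT20 (0.114). Its difference stayed between 1.20 and 1.36 when any library was left out. The promoter window is shown because this is the gene that passed, and it holds none of the 6 motifs searched, which are spelled out where they are first met below. It lies at chr2:52676094-52676393 on the reverse strand and, like the other promoters here, is RefSeq sequence on GRCm38.p6, from 250 bases before to 50 after the annotated start, written 5′ to 3′.
Cacnb4: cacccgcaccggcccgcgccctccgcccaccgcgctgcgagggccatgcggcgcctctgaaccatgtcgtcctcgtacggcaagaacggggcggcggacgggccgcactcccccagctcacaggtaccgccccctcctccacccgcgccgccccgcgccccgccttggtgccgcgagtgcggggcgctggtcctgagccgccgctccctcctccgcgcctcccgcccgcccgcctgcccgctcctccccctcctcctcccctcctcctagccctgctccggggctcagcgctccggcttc

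Slc38a2, Tmem86a, Kynu and Igfbp1 came next, each with an adjusted p between 0.05 and 0.1. Slc38a2, a sodium-coupled transporter of neutral amino acids at chr15:96687392-96699730 (reverse strand), was at 12.8, 12.6 and 12.9 FPKM in the light phase and 23.2, 23.9 and 21 FPKM in the dark phase, here and below in the order of time. Its difference was 0.78 ± 0.07 (limma adjusted p = 0.0726), and the 3 light values had an SD of 0.166 FPKM. Kynu, the kynureninase of tryptophan breakdown, was a low-level gene with 2.07, 1.98 and 1.96 FPKM in the light and 3.96, 4.41 and 4.16 FPKM in the dark phase, a difference of 0.78 ± 0.08 (limma adjusted p = 0.0847). Both genes held a flat level within each phase and a step between them. Tmem86a, an enzyme that degrades lysoplasmalogen lipids (chr7:47050601-47054777, forward strand), went the other way, with 33.2, 36.1 and 42.8 FPKM in the light and 15, 9.49 and 11.3 FPKM in the dark phase (-1.59 ± 0.16, limma adjusted p = 0.0847). Igfbp1, a binding protein of insulin-like growth factors whose liver gene is repressed by insulin, was at 5.52, 7.46 and 5.12 FPKM in the light and 2.03, 1.35 and 1.3 FPKM in the dark phase (chr11:7197782-7202546, forward strand). Its difference was -1.45 ± 0.16 (limma adjusted p = 0.0911). None of the 4 overlapped between phases.

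**Figure D2:**
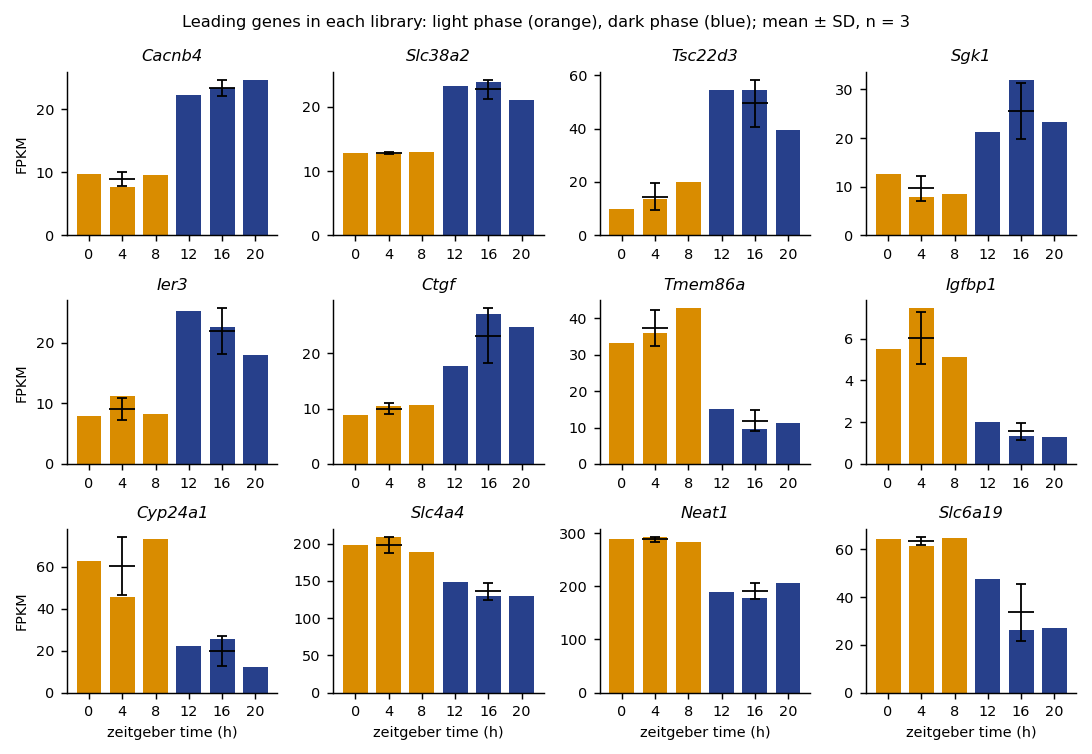
FPKM of 12 genes in each library, with the zeitgeber time in hours on the x axis, light-phase libraries in orange and dark-phase libraries in blue. Black marks give the mean and SD of the 3 libraries of a phase, and in all 12 genes the phases do not overlap.

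Tsc22d3 and Sgk1, known to respond to glucocorticoids and aldosterone, were among the 12 dark-high genes with the smallest p. Tsc22d3 encodes GILZ, a leucine zipper protein induced by both hormones (chrX:140539528-140600659, reverse strand). It was at 10, 13.7 and 19.9 FPKM in the light and 54.6, 54.5 and 39.3 FPKM in the dark phase, with its lowest dark value at ZT20 and its highest light value at ZT8. The difference was 1.74 ± 0.24 (limma adjusted p = 0.192). Sgk1, a kinase that keeps the epithelial sodium channel at the cell surface, was at 12.7, 7.97 and 8.49 FPKM and 21.2, 32 and 23.3 FPKM (1.31 ± 0.20, limma adjusted p = 0.192), highest at ZT16. Ddit4, an inhibitor of the mTORC1 kinase, was at 6.01, 6.85 and 6.68 FPKM and 10.1, 11.6 and 9.29 FPKM (0.59 ± 0.10), with flat values within each phase. Of 16 members of the glucocorticoid list tested, 4 were higher in the dark phase at an unadjusted limma p under 0.05 (Tsc22d3, Sgk1, Ddit4 and Sult1a1), beside 7.13% of all genes. None were lower at that p. In this list 4 were separated upward (beside 10.7%) and 1 downward (beside 8.11%). The median difference was 0.07 (-0.02 to 0.18 when 1 library was left out). Fkbp5, a receptor cochaperone, was at 22.7, 22.5 and 30.7 FPKM in the light and 32.3, 22.1 and 22.1 FPKM in the dark phase, with its high values on either side of the boundary at ZT8 and ZT12.

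Immediate early genes, whose transcription answers growth factors and stress within minutes, were separated by phase in 8 of 16 members tested, all higher in the dark phase, beside 10.7% of all genes. The same number passed an unadjusted limma p under 0.05 in that direction, beside 7.13%, and the count was 8 or 9 when any 1 library was left out. The median difference was 0.34. Ier3, a regulator of cell survival, was at 7.88, 11.2 and 8.19 FPKM in the light and 25.3, 22.6 and 17.9 FPKM in the dark phase (1.19 ± 0.16, limma adjusted p = 0.192). Jun, a subunit of the AP-1 factor, was at 9.79, 7.61 and 10.5 FPKM and 13.6, 13.3 and 13.3 FPKM (0.49 ± 0.11), nearly the same in all dark libraries. Klf2, a factor that endothelial cells induce under flow, was at 1.9, 1.28 and 1.72 FPKM and 2.93, 3.56 and 3.43 FPKM (0.71 ± 0.12). Not every member followed. Egr1 was at 1.21, 0.856 and 1.3 FPKM and 0.668, 0.969 and 1.25 FPKM, and Junb at 5.15, 5.11 and 6.88 FPKM and 4.08, 4.59 and 5.12 FPKM, so both overlapped between phases. The overlap of Junb was narrow, with 5.12 FPKM at ZT20 against 5.11 FPKM at ZT4. Under median-of-ratios or quantile scaling, 1 member of the list was separated downward. Ctgf and Cyr61 encode related matricellular proteins and are targets of the YAP coactivator, and Cyr61 is one of the 8. Ctgf was at 8.81, 10.5 and 10.7 FPKM in the light and 17.7, 27.2 and 24.8 FPKM in the dark phase (1.12 ± 0.16, limma adjusted p = 0.192), and Cyr61 at 7.64, 7.63 and 5.75 and 9.81, 13.7 and 12.7 FPKM (0.70 ± 0.15).

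Further dark-high genes included Atf4, Amd1 and Mfsd7b. Atf4, the transcription factor of the integrated stress response, was at 36.8, 41.1 and 39.8 FPKM in the light and 53.8, 63.9 and 59.4 FPKM in the dark phase (0.58 ± 0.09, limma adjusted p = 0.192). Amd1, which makes the aminopropyl donor for polyamines, was at 15.7, 15.1 and 13.8 FPKM and 21.3, 25.1 and 26.2 FPKM (0.66 ± 0.10). Odc1, the first enzyme of that pathway, had a lower mean in the dark phase, at 223, 356 and 366 FPKM in the light and 179, 230 and 209 FPKM in the dark phase, and the phases overlapped (-0.58 ± 0.20). Mfsd7b, also named Flvcr1, exports heme and was at 3.43, 4.41 and 4.97 FPKM and 7.75, 8.47 and 8.42 FPKM (0.82 ± 0.12), but its most abundant transcript, with 39.5% of the FPKM, overlapped between phases. On the list of ATF4 and its targets, 2 of 9 tested, Atf4 itself and Ddit4, were higher in the dark phase at an unadjusted limma p under 0.05 (beside 7.13%). Its median difference was -0.08 (-0.05 to 0.04 when 1 library was left out). Genes were filtered anew at a mean of 1 FPKM in each of those fits, so the members tested can differ from the 9. Sec14l1, a lipid-binding protein of the SEC14 family, was at 10.5, 10.1 and 9.42 FPKM and 14.4, 17.1 and 18.6 FPKM (0.68 ± 0.10). Phospho2, a phosphatase, differed by 0.43 ± 0.07 for the summed level, while its most abundant transcript, with 67.7% of the FPKM, overlapped between phases.

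The light-high genes with the smallest p included a bicarbonate transporter, a nuclear RNA and several enzymes of lipid handling. Slc4a4, the sodium bicarbonate cotransporter through which proximal tubule cells return bicarbonate to the blood, was at 198, 209 and 188 FPKM in the light and 149, 130 and 129 FPKM in the dark phase (-0.54 ± 0.08, limma adjusted p = 0.192; chr5:88886818-89239653, forward strand). Neat1, the long noncoding RNA around which nuclear paraspeckles form, was at 288, 293 and 283 FPKM and 190, 177 and 206 FPKM (-0.59 ± 0.08, limma adjusted p = 0.172; chr19:5824708-5845478, reverse strand). Its 3 light values differed by an SD of 5.03 FPKM. Malat1, another abundant nuclear noncoding RNA, was at 1767, 1320 and 1362 FPKM and 1041, 1191 and 1286 FPKM (-0.33 ± 0.13), with groups that also did not overlap. Crot, the carnitine octanoyltransferase of peroxisomes, was at 201, 233 and 212 FPKM and 161, 166 and 144 FPKM (-0.46 ± 0.09). Pi4ka, a kinase of phosphatidylinositol, was at 58.7, 69.4 and 68.3 FPKM and 49.2, 47.2 and 41.5 FPKM (-0.50 ± 0.10). Smpd2, a neutral sphingomyelinase, was at 44.2, 39.3 and 43.1 FPKM and 32.3, 32 and 32.3 FPKM (-0.38 ± 0.07). In each of these 3 genes all dark values lay below all light ones, with a limma adjusted p of 0.243 or 0.244. F3, tissue factor, which starts the extrinsic path of coagulation, was at 20.5, 24.5 and 23.2 FPKM and 14.8, 14.1 and 10.2 FPKM (-0.77 ± 0.14). Mafk, a small MAF factor, was at 10.2, 10.3 and 10.7 FPKM and 8.15, 7.69 and 7.94 FPKM (-0.35 ± 0.07), and Eogt, which attaches N-acetylglucosamine to secreted proteins, at 11.2, 11.5 and 10.9 and 8.8, 7.63 and 8.34 FPKM (-0.40 ± 0.08). Dgkq, a diacylglycerol kinase, differed by -0.41 ± 0.08 for the summed level, but its most abundant transcript held 30.1% of the FPKM and overlapped between phases. Bcl6, a transcriptional repressor, was at 28.8, 43.8 and 45 FPKM in the light and 21.3, 25.3 and 5.24 FPKM in the dark phase, with ZT20 far below the other libraries (-1.36 ± 0.51).

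Core clock genes differed in how far a split by phase could show them. Cry1, a repressor of CLOCK and BMAL1, was at 2.45, 0.614 and 1.79 FPKM in the light and 5.91, 9.05 and 9.29 FPKM in the dark phase, and its difference of 1.84 ± 0.29 (limma adjusted p = 0.192) was the largest among the clock genes higher in the dark phase. Per2, a partner of the cryptochromes, was at 0.941, 2.01 and 6.03 FPKM and 10.3, 11.8 and 7.77 FPKM (1.65 ± 0.43), and Cry2 at 3.39, 4.11 and 5.54 and 6.64, 6.07 and 5.61 FPKM (0.43 ± 0.15). All 3 repressors were separated by phase (Cry2 not under median-of-ratios or quantile scaling), out of 7 period, cryptochrome and related repressors tested (beside 10.7% of all genes). At an unadjusted limma p under 0.05, 3 were higher in the dark phase (beside 7.13%). The count was 5 without ZT8, 3 without ZT20 and 2 without ZT0, ZT4, ZT12 or ZT16. Nr1d1 encodes REV-ERB alpha, a repressor of Arntl, the gene of BMAL1. It was separated in the direction opposite to Cry1, Per2 and Cry2, at 12.9, 40 and 27.9 FPKM in the light and 7.67, 1.47 and 1.14 FPKM in the dark phase. Its difference of -2.83 ± 0.59 (limma adjusted p = 0.255) was the largest in size of any gene named here. Nr1d1 overlaps the thyroid receptor gene Thra on the opposite strand, and in the sources used here the use of strand in counting is not given.

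Arntl, Npas2, Dbp, Per1 and Per3 varied widely inside a phase. Arntl was at 8.79, 3.83 and 0.371 FPKM in the light and 0.519, 5.84 and 10.7 FPKM in the dark phase, so the lowest values, at ZT8 and ZT12, fell on either side of the boundary. Npas2, which can replace CLOCK, was at 9.78, 3.01 and 0.354 FPKM and 0.186, 1.65 and 10 FPKM. The difference was 0.30 ± 0.90 for Arntl and -0.25 ± 0.95 for Npas2, and the SE exceeded the difference in both. Dbp, a PAR bZIP activator, was at 2.66, 18.4 and 65.9 FPKM and 36.1, 5.07 and 2.54 FPKM, with its maximum at ZT8. Per1 was at 1.1, 1.87 and 3.79 FPKM and 5.11, 3.09 and 2.43 FPKM, and Per3 at 1.1, 2.24 and 4.99 and 5.52, 2.46 and 1.23 FPKM. Both Per1 and Per3 were highest at ZT12, with ZT8 next to it, and none of these genes was separated. Cry2 was separated by a gap of 0.02 on the log2 scale, the narrowest of the clock genes named here as separated.

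**Figure D3:**
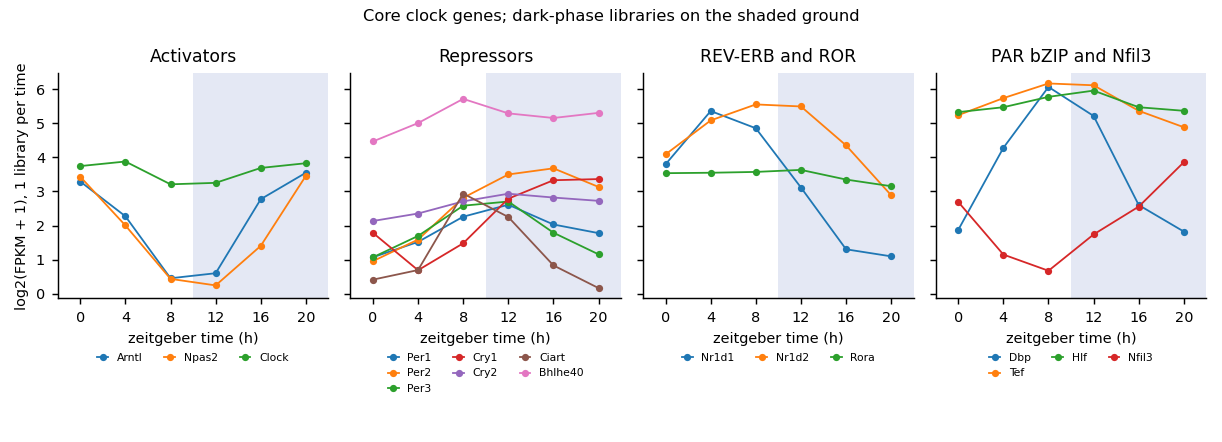
log2(FPKM + 1) of core clock genes by zeitgeber time in hours, 1 library per point, with the dark-phase libraries on the shaded ground. Cry1, Per2, Cry2 and Nr1d1 are separated by phase, while Arntl, Npas2 and Dbp run through their range within a phase.

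Promoter windows were read for short motifs on both strands, and a match is a run of letters and not a shown binding site. Of 32851 RefSeq promoters, 7.15% hold the E-box CACGTG, the element of CLOCK and BMAL1, 2.32% the D-box TTANGTAA, 2.61% the REV-ERB and ROR element TAGGTCA and 1.79% the cAMP response element TGACGTCA. A pair of heat shock units, GAANNTTC or TTCNNGAA, stands in 15.1% and the glucocorticoid element ACANNNTGT in 6.85%, with matches free to overlap one another. Of the 12 dark-high genes with the smallest p, 10 had a RefSeq promoter, and the only match was a cAMP response element in Phospho2. Of the 12 light-high genes, 8 had one, with an E-box in Mafk, Smpd2 and Dgkq (the window of Dgkq lies 7182 bases from the start of its most abundant transcript) and both a heat shock pair and a glucocorticoid element in Pi4ka. Of the 18 core clock genes, 15 had one, and the E-box was found in Per1, Cry1, Ciart and Tef. The window of Cry1 is shown as that of the dark-high clock gene with the largest difference, with the E-box, at position -60 from the start, in capitals (chr10:85185005-85185304, reverse strand).
Cry1: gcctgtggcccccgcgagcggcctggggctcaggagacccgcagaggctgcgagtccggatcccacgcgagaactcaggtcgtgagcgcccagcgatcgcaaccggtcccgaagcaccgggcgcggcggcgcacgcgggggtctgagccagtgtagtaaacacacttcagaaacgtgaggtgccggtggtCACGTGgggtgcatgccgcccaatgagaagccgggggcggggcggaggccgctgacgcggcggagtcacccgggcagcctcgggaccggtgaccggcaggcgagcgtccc

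The list of cytosolic heat shock proteins holds mainly chaperones and cochaperones that refold proteins under the control of HSF1. It also holds Hspd1 and Hspe1, which encode the mitochondrial chaperonin, and the transcription factor gene Hsf2. This list had the highest median difference of the response lists in the dark-high direction. Of 23 members tested, 11 were higher in the dark phase at an unadjusted limma p under 0.05 (beside 7.13% of all genes) and none were lower. In 10 the phases did not overlap (beside 10.7%), 22 had a higher mean in the dark phase, and the median difference was 0.49. Hspa1b, an inducible HSP70, was at 4.3, 4.2 and 6.16 FPKM in the light and 10.5, 35.8 and 7.23 FPKM in the dark phase, so the difference of 1.38 ± 0.50 rested mainly on ZT16. Its near-identical neighbour Hspa1a was at 1.92, 1.54 and 2.12 and 3.27, 9.52 and 2.42 FPKM, and reads may have been split between the pair. Hsph1, an HSP110 exchange factor, was at 28.2, 48.8 and 45.8 FPKM and 56.3, 133 and 71 FPKM (1.01 ± 0.33). The maximum of these 3 genes was at ZT16. Dnajb4, a J-domain cochaperone of HSP70, was at 13.4, 17 and 17.2 FPKM and 24.2, 32.4 and 21.9 FPKM (0.68 ± 0.16, limma adjusted p = 0.269), and Dnajb1 at 8.32, 9.07 and 9.72 and 13.5, 25.1 and 14.9 FPKM (0.86 ± 0.21). Bag3, a cochaperone that links HSP70 to autophagy, was at 9.27, 8.58 and 9.13 FPKM and 11.4, 17 and 13.1 FPKM (0.55 ± 0.14). Chordc1, a cochaperone of HSP90, was at 13.6, 16.9 and 14.8 FPKM and 17.4, 36 and 25.8 FPKM (0.71 ± 0.23). Hsp90aa1, the inducible HSP90, was at 160, 164 and 135 FPKM and 127, 350 and 262 FPKM, and overlapped because ZT12 was below all light libraries. The median of the list relative to each gene's mean was -0.31, -0.20 and -0.24 at ZT0, ZT4 and ZT8 and -0.10, 0.62 and 0.22 at ZT12, ZT16 and ZT20, so ZT12 stood near the light phase. The 11 members higher at an unadjusted limma p under 0.05 became 5 without ZT0, 5 without ZT4, 7 without ZT16, 7 without ZT20 and 16 without ZT12. Without ZT12, 1354 of 12701 genes were higher at that p.

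The heat shock pair was found in 12 of the 18 heat shock genes with a RefSeq promoter, beside 15.1% of all promoters, and 3 windows are shown with every match in capitals. Chordc1 has overlapping pairs around the annotated start, which lies 142 bases from the start of its most abundant transcript (chr9:18292017-18292316, forward strand). Dnajb4 has a pair at position -14 (chr3:152193796-152194095, reverse strand), and Hspa1b a pair at position -104 (chr17:34959189-34959488, reverse strand).
Chordc1: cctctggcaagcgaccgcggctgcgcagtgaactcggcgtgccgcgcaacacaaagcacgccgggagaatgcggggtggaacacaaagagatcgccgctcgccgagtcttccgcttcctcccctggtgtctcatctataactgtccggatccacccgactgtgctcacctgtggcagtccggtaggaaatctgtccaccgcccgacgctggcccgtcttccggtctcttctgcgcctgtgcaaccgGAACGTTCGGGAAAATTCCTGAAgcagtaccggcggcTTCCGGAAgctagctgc
Dnajb4: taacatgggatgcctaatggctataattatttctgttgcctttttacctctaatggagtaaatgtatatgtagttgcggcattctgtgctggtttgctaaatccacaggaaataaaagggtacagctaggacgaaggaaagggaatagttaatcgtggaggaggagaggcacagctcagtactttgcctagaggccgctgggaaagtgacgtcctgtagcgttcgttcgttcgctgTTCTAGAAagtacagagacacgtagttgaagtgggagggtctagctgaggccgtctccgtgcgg
Hspa1b: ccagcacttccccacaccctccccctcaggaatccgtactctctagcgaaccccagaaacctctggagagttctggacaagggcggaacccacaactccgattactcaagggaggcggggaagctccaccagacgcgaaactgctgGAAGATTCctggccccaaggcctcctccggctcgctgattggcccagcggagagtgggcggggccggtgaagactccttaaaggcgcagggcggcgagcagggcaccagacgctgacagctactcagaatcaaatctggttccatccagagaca

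Chaperones of the endoplasmic reticulum, which are raised by the unfolded protein response, had 19 of 20 means higher in the dark phase and a median difference of 0.30 (0.16 to 0.51 when 1 library was left out). Of the 20, 5 passed an unadjusted limma p under 0.05 in that direction (beside 7.13%), and 2 did not overlap, close to the 10.7% of all genes. Hspa5, the chaperone BiP, was at 120, 141 and 126 FPKM in the light and 136, 340 and 224 FPKM in the dark phase (0.76 ± 0.29). Manf, a secreted cofactor of BiP, was at 30.3, 47.4 and 45.9 FPKM and 50.1, 138 and 70.5 FPKM (0.95 ± 0.35), and Creld2 at 6.67, 7.78 and 8.71 and 8.54, 31 and 17.5 FPKM (1.04 ± 0.39). In all 3 genes ZT12 lay within or next to the light range and ZT16 and ZT20 lay above it. The 5 members became 14 without ZT12 (beside 1354 of 12701 genes), 0 without ZT0, 2 without ZT4, 1 without ZT16 and 3 without ZT20. Cirbp, an RNA-binding protein that is induced by mild cold, was lower in the dark phase, at 37.5, 26.7 and 31.3 FPKM in the light and 20.6, 9 and 11.1 FPKM in the dark phase (-1.24 ± 0.28, limma adjusted p = 0.266). Rbm3, the other cold-inducible member, was at 55.1, 60.3 and 68.4 FPKM and 81.6, 57 and 42.1 FPKM and overlapped. The labels give no body temperature.

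Aqp2, Avpr2, Slc5a3 and Aqp1, of the list of water transport and urine concentration, were separated by phase and higher in the dark. Aqp2, the vasopressin-regulated water channel of principal cells (chr15:99579055-99584547, forward strand), was at 107, 82.3 and 117 FPKM in the light and 172, 181 and 178 FPKM in the dark phase. The dark values were nearly equal and the difference was 0.80 ± 0.13 (limma adjusted p = 0.192). Avpr2, the vasopressin receptor that signals to AQP2, was at 6.58, 6.15 and 5.88 FPKM and 7.71, 9.49 and 10 FPKM (0.48 ± 0.11). Slc5a3, which takes up the osmolyte myo-inositol, was at 22, 21.5 and 26.1 FPKM and 36.8, 48.7 and 35.2 FPKM (0.76 ± 0.14), and its gene overlaps another one, so reads may be shared. Aqp1, the constitutive water channel of the proximal tubule and descending limb, was at 287, 221 and 272 FPKM and 317, 329 and 318 FPKM (0.31 ± 0.10). These 4 of 16 members tested passed an unadjusted limma p under 0.05 (beside 7.13% of all genes), and none was lower at that p. The median difference was 0.22 (0.12 to 0.27 when 1 library was left out). The summed FPKM of 8 principal cell markers was 258 to 312 in the light and 358 to 393 in the dark phase, and without Aqp2 it was 176 to 195 and 180 to 220 and overlapped. In whole tissue, more cells of a type and more RNA per cell cannot be told apart. The E-box stands in 7.15% of all promoters. It is also in the windows of Bcl6, which was lower in the dark phase, and of Aqp6, whose phases overlapped. The promoter of Aqp2 is shown because this motif stands in it, at position -58, in capitals (chr15:99578806-99579105, forward strand).
Aqp2: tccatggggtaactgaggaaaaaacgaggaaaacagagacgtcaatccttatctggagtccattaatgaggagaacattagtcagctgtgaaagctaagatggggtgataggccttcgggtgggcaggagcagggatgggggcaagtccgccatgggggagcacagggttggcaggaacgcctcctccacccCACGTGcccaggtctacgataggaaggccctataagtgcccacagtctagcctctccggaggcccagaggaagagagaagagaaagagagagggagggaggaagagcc

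Sodium transport was read by nephron segment. In the collecting duct and aldosterone list, 3 of 11 members tested were higher in the dark phase at an unadjusted limma p under 0.05 (beside 7.13%), namely Sgk1, Tsc22d3 and Scnn1a. Sgk1 and Tsc22d3 were also counted on the glucocorticoid list. The 3 became 2 without ZT0, ZT4, ZT12 or ZT16 and 4 without ZT20. Scnn1a, the alpha subunit of the epithelial sodium channel, was at 21.4, 18.7 and 25.5 FPKM and 29.6, 27.4 and 24.9 FPKM (0.32 ± 0.12) and overlapped at ZT8 and ZT20. The other channel subunits were closer, with Scnn1b at 12, 12.1 and 12.2 and 13.4, 11 and 10.2 FPKM and Scnn1g at 10.3, 11.3 and 12.5 and 13.6, 11.6 and 12 FPKM. In the proximal tubule list, 4 of 12 were lower in the dark phase at that p and 3 did not overlap, beside 5.53% and 8.11% of all genes. Slc6a19, the sodium-driven carrier of neutral amino acids at the brush border, was at 64.2, 61.4 and 64.8 FPKM in the light and 47.5, 26.4 and 27.1 FPKM in the dark phase (-0.95 ± 0.21, limma adjusted p = 0.266; chr13:73679745-73704865, reverse strand). Slc5a12, a sodium-lactate cotransporter of the same membrane, was at 142, 150 and 132 FPKM and 122, 91.7 and 83.2 FPKM (-0.53 ± 0.14). In both genes ZT12 stood between the light libraries and the other dark ones. The thick ascending limb and distal convoluted tubule lists, of 10 and 14 tested, each had 0 members higher and 1 lower in the dark phase at that p. Slc12a3, the thiazide-sensitive cotransporter, was at 173, 152 and 112 FPKM and 114, 114 and 127 FPKM and overlapped.

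Genes of phosphate, calcium and vitamin D handling were lower in the dark phase in 6 of 15 members tested at an unadjusted limma p under 0.05 (beside 5.53%). None were higher at that p. In 5 the phases did not overlap (beside 8.11%), and the median difference was -0.14 (-0.24 to -0.07 when 1 library was left out). Cyp24a1, the enzyme that inactivates vitamin D hormone (chr2:170482708-170497145, reverse strand), was at 62.5, 45.5 and 73 FPKM in the light and 22.1, 25.3 and 12 FPKM in the dark phase. Its highest dark value was below the lowest light value, and the difference was -1.60 ± 0.28 (limma adjusted p = 0.227). Vdr, the vitamin D receptor that induces Cyp24a1, was at 92.4, 82.4 and 73.9 FPKM and 69.1, 69.5 and 70.9 FPKM (-0.24 ± 0.09), and Kl, the coreceptor for the phosphate hormone FGF23, at 225, 276 and 223 and 203, 192 and 194 FPKM (-0.29 ± 0.10). Slc20a2, a phosphate transporter, was at 16.5, 16.6 and 17 FPKM and 13.6, 10.7 and 13.6 FPKM (-0.38 ± 0.10), and Slc8a1, the sodium-calcium exchanger of the distal tubule, at 12.2, 12.4 and 11.1 and 10.3, 8.63 and 9.58 FPKM (-0.30 ± 0.09). Slc34a1, the main phosphate transporter of the brush border, was at 1013, 1023 and 958 FPKM and 937, 966 and 1013 FPKM, with no separation (-0.04 ± 0.07). Without ZT16 the count of 6 was 3, without ZT0 it was 4 and without ZT20 it was 4.

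Of 13 sugar and monocarboxylate carriers tested, Slc5a12 among them, 4 were lower in the dark phase at an unadjusted limma p under 0.05 (beside 5.53%), 4 were separated downward (beside 8.11%), and the median difference was -0.11 (-0.21 to -0.09 when 1 library was left out). Slc2a2, the basolateral glucose exit GLUT2, was at 52, 63.1 and 54.9 FPKM in the light and 43.5, 42.9 and 43.7 FPKM in the dark phase (-0.37 ± 0.08). Without ZT16 or ZT20 the 4 became 2. Of 18 organic anion and cation carriers, 4 were lower and 1 was higher at that p (beside 5.53% and 7.13% of all genes). In this list 5 were separated downward and 3 upward (beside 8.11% and 10.7%). The 3 became 2 with the most abundant transcript, and 1 under quantile scaling or with mitochondrial transcripts removed. Slc22a6, the uptake carrier OAT1 for organic anions, was at 357, 387 and 393 FPKM and 324, 317 and 286 FPKM (-0.29 ± 0.08), while its relative Slc22a8 was at 85, 77.4 and 77 and 96.7, 85.8 and 92.4 FPKM (0.20 ± 0.08). Both sit at the basolateral membrane and their differences had opposite signs. Slc22a8 was the 1 member higher at that p, and it missed it without ZT4, ZT8, ZT12 or ZT20. Slco1a1, an apical organic anion transporter, was at 303, 442 and 373 FPKM and 257, 277 and 170 FPKM (-0.68 ± 0.21). The summed FPKM of 12 markers of the first 2 segments of the proximal tubule was 4164 to 4423 in the light and 4017 to 4154 in the dark phase, and without Slc6a19 it was 4099 to 4361 and 3990 to 4128 and overlapped. Its part in these differences was not tested.

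Among renin-angiotensin genes, 3 of 8 tested were lower in the dark phase at an unadjusted limma p under 0.05 (beside 5.53% of all genes). These 3 did not overlap (beside 8.11%). Ace, the angiotensin-converting enzyme, was at 70.4, 75.1 and 70 FPKM in the light and 66.8, 58.2 and 55.3 FPKM in the dark phase (-0.26 ± 0.09). Agtr1a, the main angiotensin receptor, was at 22.3, 25 and 22.2 FPKM and 16.4, 16 and 21.7 FPKM (-0.35 ± 0.12), and the aminopeptidase gene Anpep at 54.9, 58.3 and 67.8 and 52.6, 50.2 and 43.5 FPKM (-0.30 ± 0.11). Ren1, the gene of renin itself, was at 10.7, 9.41 and 12.3 FPKM and 10.6, 17.7 and 15.2 FPKM, higher at ZT16 and ZT20 than in any other library, and its phases overlapped at ZT12. The count of 3 became 1 without ZT4, without ZT16 or without ZT20, and 2 without ZT8 or ZT12.

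**Figure D4:**
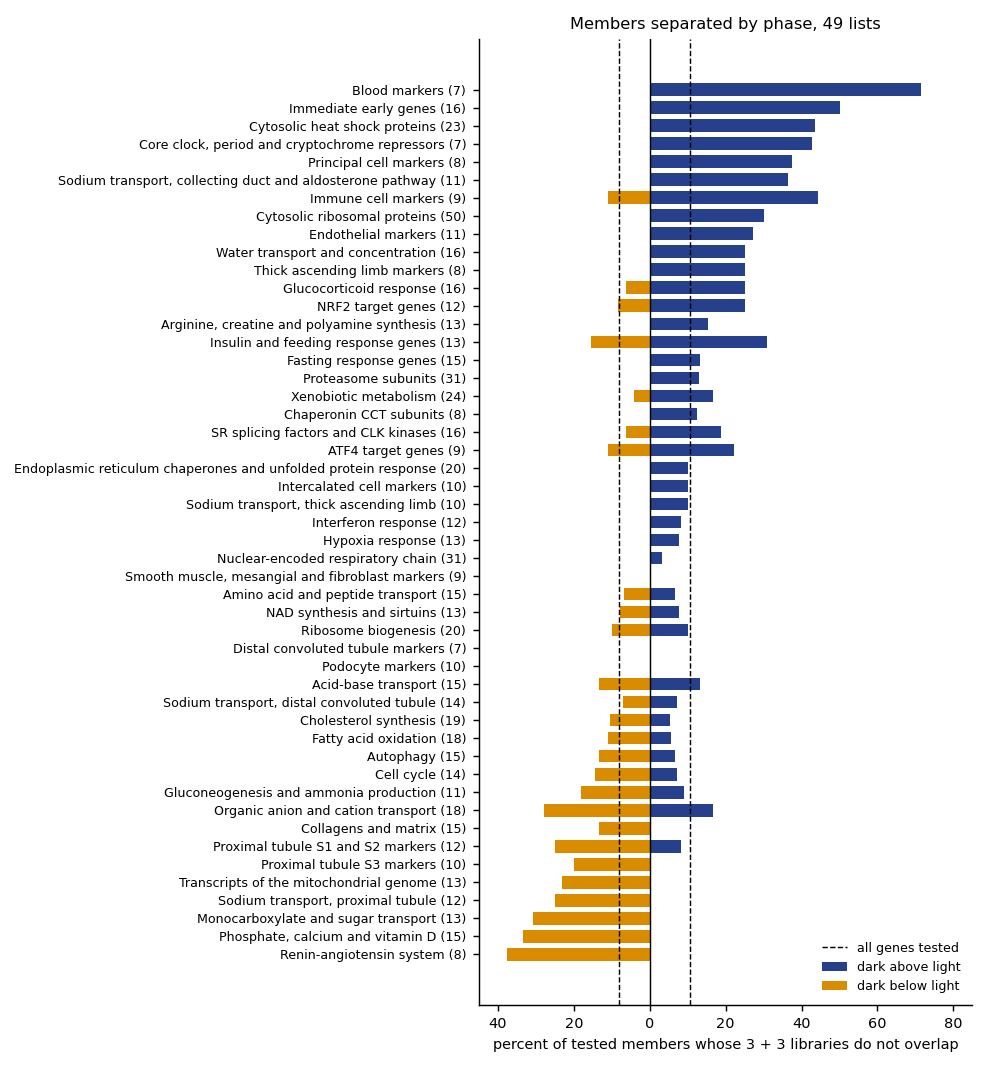
Percent of the tested members of 49 gene lists whose 3 dark libraries are all above (blue, to the right) or all below (orange, to the left) the 3 light ones, with the number tested in parentheses. Dashed lines mark 10.7% and 8.11%, the shares over all 12709 genes, and blood markers, immediate early genes and immune markers reach farthest right while the renin-angiotensin list reaches farthest left.

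Lists of intermediary metabolism had members on both sides. Fatty acid oxidation had 0 members higher and 1 lower of 18 at an unadjusted limma p under 0.05 (beside 7.13% and 5.53%), cholesterol synthesis 1 and 1 of 19, and gluconeogenesis with ammonia production 1 and 2 of 11. The fasting list had 1 and 1 of 15, and the insulin and feeding list 2 and 1 of 13. These counts lay between 0 and 3 when any 1 library was left out. Of the insulin and feeding list, 4 members were separated upward and 2 downward (beside 10.7% and 8.11%), or 2 and 2 with the most abundant transcript. Scd2, a desaturase of fatty acids, was at 11.9, 11.3 and 10.5 FPKM in the light and 14.1, 15.6 and 18 FPKM in the dark phase (0.46 ± 0.10). Srebf1, which encodes the lipogenic factor SREBP1, was at 9.57, 8.28 and 7.35 FPKM and 10.2, 12 and 18.3 FPKM (0.59 ± 0.20), highest at ZT20. The NRF2 target list had 2 of 12 higher (4 without ZT12 and 1 when any other library was left out), among them Osgin1, a gene of the oxidative stress response, at 15.2, 27.2 and 19.3 FPKM and 32, 44.4 and 39.6 FPKM (0.90 ± 0.21). The xenobiotic list had 4 higher and 1 lower of 24. Gstt1, a glutathione transferase, was at 82.1, 66.5 and 71.1 FPKM and 97.2, 88.9 and 98.6 FPKM (0.37 ± 0.09).

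Cytosolic ribosomal protein genes showed a small and wide shift. Of 50 tested, 48 had a higher mean in the dark phase and 15 did not overlap (beside 10.7%), but 3 passed an unadjusted limma p under 0.05, below the 7.13% of all genes, and the median difference was 0.20 (0.10 to 0.25 when 1 library was left out). The list was lowest at ZT4, with a median of -0.30 relative to each gene's mean, and lay between 0.00 and 0.14 in the other 5 libraries, highest at ZT16 and ZT20. Rps23 was at 163, 154 and 183 FPKM in the light and 190, 189 and 193 FPKM in the dark phase (0.20 ± 0.08). Ribosomal protein genes have many processed pseudogenes, which can take or lend reads. In place of 3 members, 12 passed without ZT8, 9 without ZT12, 8 without ZT0, 1 without ZT4, 1 without ZT20 and 0 without ZT16. Transcripts of the mitochondrial genome were lower in 12 of 13 means, with a median difference of -0.16 (-0.23 to -0.09 when 1 library was left out). Of the 13, 3 were separated downward (1 under quantile scaling), beside 8.11% of all genes. At an unadjusted limma p under 0.05, 1 was lower (2 without ZT12 or ZT16), beside 5.53% of all genes. mt-Atp6, a subunit of ATP synthase, was at 209, 193 and 201 FPKM and 157, 151 and 135 FPKM (-0.45 ± 0.08), and mt-Nd1, a subunit of complex I, at 27508, 27860 and 26308 and 23526, 25961 and 22236 FPKM (-0.19 ± 0.09). The mitochondrial share of a library was highest at ZT4, at 28.6%, and lowest at ZT20, at 22.2%. Nuclear-encoded subunits of the respiratory chain had 27 of 31 means higher, none at an unadjusted limma p under 0.05, and a median difference of 0.09 (0.01 to 0.14 when 1 library was left out). Of 15 collagen and matrix genes, 4 were lower in the dark phase at that p (beside 5.53%). The 4 became 0 without ZT0 or ZT16, 1 without ZT4 and 2 without ZT12. Col4a3, a collagen of the glomerular basement membrane, was at 33.3, 34.3 and 25 FPKM and 17.4, 19.6 and 27 FPKM (-0.52 ± 0.18) and overlapped.

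Most markers of blood and immune cells had a higher mean in the dark phase as well. Blood markers summed to 148 to 194 FPKM in the light and 227 to 335 FPKM in the dark phase. Of 7 tested, 5 were higher at an unadjusted limma p under 0.05 (beside 7.13% of all genes) and did not overlap (beside 10.7%). The median difference was 0.64. Hba-a2, an alpha globin, was at 8.23, 8.05 and 7.23 FPKM and 12.6, 12.5 and 12.3 FPKM (0.60 ± 0.07, limma adjusted p = 0.14), flat within each phase. Hbb-bs, an adult beta globin, was at 105, 83.6 and 79.1 FPKM and 123, 204 and 188 FPKM (0.92 ± 0.20), and Alas2, the heme synthesis enzyme of red cells, at 2.36, 2.53 and 1.89 and 3.52, 4.68 and 4.12 FPKM (0.64 ± 0.12). The count was 5 whichever library was left out. Hba-a1 with Hba-a2, and Hbb-bs with Hbb-bt, are near-identical pairs between which reads may have been split. Without Hbb-bs the sum was 65.9 to 88.7 FPKM and 104 to 131 FPKM. Immune markers summed to 120 to 139 FPKM and 153 to 182 FPKM, with Cd74, the invariant chain of class II antigen presentation, at 69.9, 62.3 and 66.3 FPKM and 79.3, 81.8 and 99.6 FPKM (0.38 ± 0.10), and without Cd74 the sums overlapped. C1qa, a macrophage complement gene, was at 5.28, 5.32 and 6.54 FPKM and 7.67, 7.33 and 7.74 FPKM (0.36 ± 0.09). Of 9 immune markers tested, 8 had a higher mean in the dark phase, and 4 were higher at an unadjusted limma p under 0.05 (beside 7.13%). In this list 4 were separated upward (beside 10.7%) and 1 downward (beside 8.11%). Endothelial markers were higher in all 11 means, 5 of them at an unadjusted limma p under 0.05 (beside 7.13%), and 3 were separated (beside 10.7%). Their sums, 105 to 128 FPKM and 116 to 199 FPKM, overlapped because ZT12 was low. Emcn, an endothelial sialomucin, was at 14.5, 16 and 14.1 FPKM and 16.6, 21.9 and 26 FPKM (0.48 ± 0.15). The 5 became 10 without ZT12 (beside 1354 of 12701 genes), 3 without ZT16 and 3 without ZT20.

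Podocyte markers summed to 45.6 to 59.5 FPKM in the light and 39 to 104 FPKM in the dark phase, with ZT12 the lowest and ZT20 the highest of all 6 libraries. No podocyte marker of 10 passed an unadjusted limma p under 0.05 with all libraries, beside 7.13% of all genes higher and 5.53% lower. Without ZT12, 7 were higher at that p, beside 1354 of 12701 genes. Smooth muscle and fibroblast markers summed to 59.7 to 61.2 FPKM and 59.5 to 92.2 FPKM, again with ZT12 at the light level. The part of these marker sums in the differences given above was not tested. Adrenal markers were at most 0.645 FPKM in any library, with Cyp11b1, Cyp11b2, Nr5a1, Th and Dbh listed at 0, and skeletal muscle markers were at most 0.412 FPKM. Urothelium markers were at most 1.62 FPKM. Of the adipose markers Ucp1 was listed at 0, and Fabp4, which endothelial cells also express, was at 41.9, 42.4 and 57.1 FPKM and 55, 49.3 and 56.1 FPKM.

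**Figure D5:**
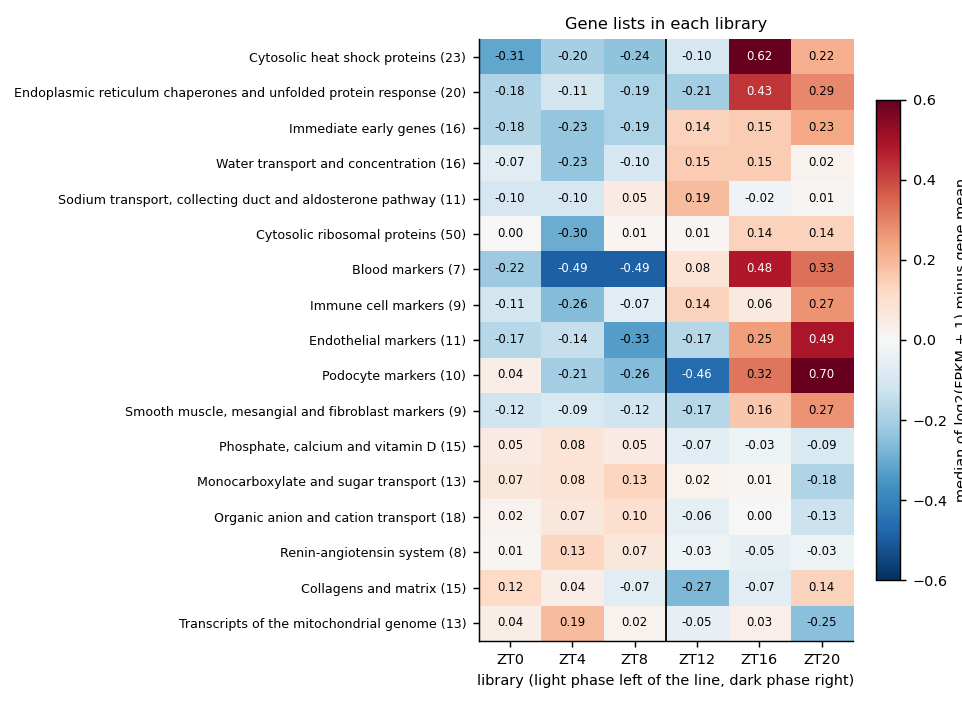
Median over the tested members of 17 lists of log2(FPKM + 1) minus each gene's mean, for each library (columns) and list (rows), with the number of members in parentheses. Immediate early genes and blood markers change sign at the phase boundary, while the endoplasmic reticulum, endothelial, podocyte and smooth muscle lists are still low at ZT12 and high at ZT16 and ZT20.

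Of the 48 genes called without ZT12 (31 higher and 17 lower at a limma adjusted p under 0.05), several had ZT12 inside or next to the light range. The genes named from them were chosen after their values had been seen. Serpinh1, the collagen chaperone HSP47, was at 20.1, 21.1 and 20.5 FPKM in the light phase, 21.6 FPKM at ZT12 and 46.4 and 39.9 FPKM at ZT16 and ZT20 (1.03 without ZT12, limma adjusted p = 0.0361). Tardbp, an RNA-binding protein of the nucleus, was at 127, 113 and 108 FPKM in the light phase, 128 FPKM at ZT12 and 251 and 216 FPKM later (1.00 without ZT12, limma adjusted p = 0.0418). Cacnb4, Slc38a2, Tmem86a, Kynu and Igfbp1 were also among the 48, and in these 5 genes ZT12 was already on the dark side.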

How the data were processed

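Total RNA of whole kidney was sequenced, 1 strand-specific library per time point, and the 6 libraries were grouped by labelled zeitgeber time, 3 per phase. The values are FPKM per transcript that the authors computed and deposited, with the transcript length, a number in bases, beside each in the deposited table. The submitters' processing notes list bcl2fastq 2.20 among the tools and mm9 as genome build. Of 128603 deposited transcripts, 127971 were matched to GENCODE M21 on GRCm38. Of those matched, 126203 (98.62%) lay inside the locus that the deposited table gives. Aligner, estimator and use of strand: not given in the sources used here. Low FPKM multiplied by transcript length, checked in genes of 1 transcript, did not fall on clean steps of whole reads, so depth remained unknown.

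FPKM of 128603 transcripts were added per symbol to 51803 symbols, of which 12709 had a mean of at least 1 FPKM. log2(FPKM + 1) was fitted in limma 3.58.1 (R 4.3.3, moderated by eBayes with a trend), dark minus light with 4 residual degrees of freedom, and p-values were adjusted after Benjamini and Hochberg over the whole table. The fit was tested on simulated data. A gene was called at an adjusted p under 0.05. Motifs and figures were made with Python 3.11.15, numpy 2.4.6, pandas 2.3.3 and matplotlib 3.10.9.

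Named genes were the 12 per phase with the smallest p and the 6 with the largest difference at an unadjusted p under 0.05 among separated genes of at least 5 FPKM, all core clock genes, up to 4 per gene list by p, and for cell type lists the 2 of widest range, 224 in all, of which the text prints fewer, and some genes are not reported here. Fkbp5, Egr1, Junb, Hspa1a, Hsph1, Hsp90aa1, Hspa5, Scnn1b, Vdr, Slc34a1, Kynu, Serpinh1, Tardbp, Tubb4b, Ccnd1, Esm1 and mt-Rnr2 were chosen after their values were seen. The grouping, the 58 lists and the rule were set with earlier results of these data known. The labels do not say whether the libraries came from separate animals, so p-values measure the spread between these libraries. Alternatives were a pseudocount of 0.1, no filter, a minimum of 5 FPKM, median-of-ratios and quantile scaling, removal of mitochondrial transcripts, the most abundant transcript per gene, limma without trend or with robust moderation, and leaving out each library.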

Additional observations from a re-analysis of the deposited data

How the results depend on the processing

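The 1 gene called higher in the dark phase became 0 with no filter on low values, 0 with the most abundant transcript per gene, 0 in limma without trend, 2 with a minimum mean of 5 FPKM and 2 with mitochondrial transcripts removed, and 0 to 31 when 1 library was left out. The 0 genes called lower became 0 to 17 when 1 library was left out. Genes higher at an unadjusted limma p under 0.05 numbered 580 of 8480 tested at a minimum of 5 FPKM and 514 to 1354 with 1 library left out. Genes lower numbered 1078 of 25013 tested with no filter and 339 to 1066 with 1 library left out. The main fit had 906 and 703 of 12709 tested, so counts under another filter also follow the number of genes tested. Genes with all dark libraries above the light ones numbered 878 of 8480 at a minimum of 5 FPKM and 1732 to 2956 with 1 library left out. Those below numbered 1646 of 25013 with no filter and 1272 to 2193 with 1 library left out. Fewer libraries by themselves give more separated genes. Of all genes higher or lower at that p, 56.3% were higher, and the median-of-ratios and quantile scalings gave 797 against 811 and 770 against 875. With the most abundant transcript the sign of the difference turned for Clk3 (-0.03), Clock (0.06), Dhcr7 (0.11), Kit (0.13), Rps28 (-0.24) and Srsf5 (0.05), and the cause was not tested. Over the fits that leave out 1 library, the difference took both signs for Arntl (-0.47 to 1.15), Bhlhe40 (-0.11 to 0.51), Ciart (-0.85 to 0.53), Clock (-0.22 to 0.15), Dbp (-1.96 to 0.14), Fxyd4 (-0.28 to 0.06), Gatm (-0.36 to 0.21), Hlf (-0.11 to 0.20), Npas2 (-1.13 to 0.49), Nr1d2 (-1.29 to 0.01), Per3 (-0.31 to 0.50), Rbm3 (-0.31 to 0.16), Slc4a1 (-0.19 to 0.23) and Tef (-0.59 to 0.03), with fewer libraries in each phase. No paired analysis was possible because the labels give no replicate numbers that tie a light library to a dark one.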

Other observations

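Ptger3, the prostaglandin E receptor EP3 that opposes vasopressin in the thick ascending limb, was separated by phase, at 38.7, 31.9 and 40.1 FPKM in the light and 53.2, 49.3 and 48.7 FPKM in the dark phase (0.45 ± 0.10, limma adjusted p = 0.266). Its most abundant transcript held 51.4% of the FPKM. Ppp1r1a, a phosphatase inhibitor of the same segment, was at 45.2, 32.5 and 45.4 FPKM and 56.2, 49.9 and 49.4 FPKM (0.34 ± 0.14). The summed thick ascending limb markers overlapped between phases. Car15, a membrane-bound carbonic anhydrase, was at 50.7, 45.8 and 52.6 FPKM and 60.7, 67.4 and 59.7 FPKM (0.33 ± 0.08, limma adjusted p = 0.287). Tra2a, a splicing regulator of the SR family, was at 11.1, 15.8 and 14.5 FPKM and 19.8, 27.4 and 21.6 FPKM (0.70 ± 0.16, limma adjusted p = 0.266), and Srsf7, another SR protein, at 23.3, 21.4 and 21 and 23.4, 30.6 and 28.3 FPKM (0.30 ± 0.11). Both were highest at ZT16. Of 16 SR factors and CLK kinases tested, 3 were higher and 1 was lower in the dark phase at an unadjusted limma p under 0.05 (beside 7.13% and 5.53%). The count was 4 higher without ZT12, 1 without ZT4, ZT16 or ZT20, and none lower without ZT0, ZT4 or ZT16.

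Of the 48 genes called without ZT12, the 4 named here were picked after their values were seen. Tubb4b, a beta tubulin, was at 99.3, 100 and 95.6 FPKM in the light phase, 101 FPKM at ZT12 and 151 and 170 FPKM at ZT16 and ZT20 (0.70 without ZT12, limma adjusted p = 0.0445). Ccnd1, the cyclin that starts the cell cycle, was at 75, 75.2 and 86.1 FPKM in the light phase, 89.7 FPKM at ZT12 and 44.3 and 48.6 FPKM later (-0.75, limma adjusted p = 0.0488). Esm1, an endothelial proteoglycan, was at 8.69, 10.6 and 9.62 FPKM in the light phase, 9.3 FPKM at ZT12 and 20.8 and 24.2 FPKM later (1.15, limma adjusted p = 0.0418). mt-Rnr2, the large ribosomal RNA of mitochondria, was at 1230, 1256 and 1117 FPKM in the light phase, 1393 FPKM at ZT12 and 3200 and 2334 FPKM later (1.19, limma adjusted p = 0.0488), while 12 of the 13 protein-coding transcripts of the same genome had a lower mean in the dark phase. The efficiency of ribosomal RNA removal in each library was not tested.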
